A study of Mus musculus with 3 samples.

Results

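The genes described are the 7 mouse genes of the FOS and JUN families, whose proteins form the transcription factor AP-1: Fos, Fosb, Fosl1 and Fosl2 of the FOS family, and Jun, Junb and Jund of the JUN family. They were chosen by symbol from a read-count table of 20162 genes, and all 7 had a row. All 7 were also among the 14478 genes with enough reads to test. Polyadenylated RNA came from C2C12, a line of mouse myoblasts that stop dividing and fuse into myotubes in low serum. The populations carried a lentiviral short hairpin RNA (shRNA), were selected with puromycin, and were moved to differentiate from growth medium with 10% FCS (fetal calf serum) to 2% horse serum for 7 days. Of these populations, 2 expressed different shRNAs against the TEAD factor Tead4 (called Tead4 shRNA A and B here) and 1 expressed a control shRNA, so lentiviral infection and puromycin were common to the 3 libraries. Each was an infected population with no number of clones given, and the labels mention no second culture of any shRNA.

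AP-1 is a dimer of proteins that join through a leucine zipper and grip DNA with a basic region. JUN proteins can pair with themselves or with FOS proteins, whereas FOS proteins need a JUN-type partner. Fos, Fosb, Jun and Junb are immediate-early genes, switched on within minutes of serum, growth factors or stress and silenced soon after. Jund is made more steadily, and Fosl1 and Fosl2 follow later. MAP kinases act on these proteins as well as on their genes, so RNA shows only part of AP-1 activity. AP-1 sites often lie beside TEAD sites in enhancers used by the YAP and TAZ coactivators. In myoblasts, Jun and Fos are known to oppose MyoD and to fall when cells leave the cycle and differentiate.

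Promoter windows are shown for Fos and Jun, the members with an unadjusted p under 0.05, because both genes are known for control through short sites next to the start. The windows reach from 250 bases before to 50 bases after the annotated start and come from RefSeq on GRCm38.p6, a later build than the mm9 build named in the submitters' processing notes. The Fos window is chr12:85473640-85473939 on the plus strand and the Jun window chr4:95052173-95052472 on the minus strand, each printed 5′ to 3′. Capitals mark, in Fos, the core TGACGT of the cyclic AMP response element and the TATA box TATAAA. In Jun, capitals mark the CCAAT box, the AP-1 variant TGACATCA and the core TATTTTTA of a MEF2 site.
Fos: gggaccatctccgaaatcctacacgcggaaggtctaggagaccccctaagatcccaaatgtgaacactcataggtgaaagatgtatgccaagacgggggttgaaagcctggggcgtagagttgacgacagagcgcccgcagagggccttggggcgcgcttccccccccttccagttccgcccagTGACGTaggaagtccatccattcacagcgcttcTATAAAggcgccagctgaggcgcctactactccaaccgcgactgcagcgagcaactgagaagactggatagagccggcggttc
Jun: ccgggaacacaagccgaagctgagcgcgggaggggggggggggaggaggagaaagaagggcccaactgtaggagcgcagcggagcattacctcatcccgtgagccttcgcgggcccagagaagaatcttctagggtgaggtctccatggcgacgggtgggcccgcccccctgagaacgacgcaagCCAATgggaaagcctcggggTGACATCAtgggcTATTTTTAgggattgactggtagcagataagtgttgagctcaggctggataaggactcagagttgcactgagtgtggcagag

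RefSeq windows were matched for 6 of the 7 members, Fosl1 being the other, and were searched on both strands. TGACGT stood at -66 to -61 from the Fos start and was found in 7.51% of the 32851 windows of this length. TATAAA stood at -33 to -28 in Fos, against 13.6% of all windows. It also occurred in the Junb window, at 0 to 5 from the annotated start and not before it. In Jun, TGACATCA stood at -45 to -38 (3.62% of all windows), TATTTTTA at -32 to -25 (2.72%) and CCAAT at -65 to -61 (37.4%), CCAAT being present in the Junb window too. The TEAD site GGAATG, the AP-1 site TGACTCA, the full cyclic AMP response element TGACGTCA and the CArG box, the site of serum response factor, occurred in 0 of the 6 windows. They occurred in 14.7%, 5.20%, 1.79% and 1.63% of all windows. A match is a run of letters and not a measured binding site, and the windows leave out sites that lie further away.

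The Tead4 shRNA A, Tead4 shRNA B and control libraries held 19918954, 15594305 and 16412139 counted reads. The target gene Tead4 had 397 reads under shRNA A and 170 under shRNA B, against 1256 in the control library (edgeR quasi-likelihood log2 fold change -2.35, SE 0.27, adjusted p = 2.82e-06). With both Tead4 shRNA libraries set against the control library, 5.34% of the 14478 tested genes were called higher and 4.48% lower at an adjusted p of 0.05. The median log2 fold change over all tested genes was 0.02. This test has 1 residual degree of freedom. It takes its spread from the 2 Tead4 shRNA libraries, which carry different hairpins, and assumes the same spread for the single control. A further 20.9 prior degrees of freedom are borrowed from all tested genes. The SE and interval of a gene therefore rest mostly on that pool and little on its own 2 libraries. Ratios of 1 library to another have no replicate check, so their 95% exact intervals cover counting error only. Reads amplified by PCR are not independent molecules, so the intervals can be too narrow even for counting error. Levels are given as CPM, the usual depth-scaled read count, on TMM-scaled library sizes (TMM is edgeR's trimmed-mean scaling).

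None of the 7 members passed the test. The edgeR quasi-likelihood test called 0 higher and 0 lower, against 5.34% and 4.48% of all tested genes, and 2 members, Fos and Jun, had an unadjusted p under 0.05, both higher (11.9% of all tested genes were higher and 9.78% lower at that level). Fitted log2 fold changes were above 0 for 6 of 7 members, with a median of 0.53, and 51.8% of all tested genes were above 0. In 6 of 7 members the CPM was above the control library in both Tead4 shRNA libraries, which held for 39.7% of all tested genes, and Jund was the exception. The members sit inside the cloud of genes not called in the plot of all tested genes, with Fos at its upper edge.

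**Figure D1:**
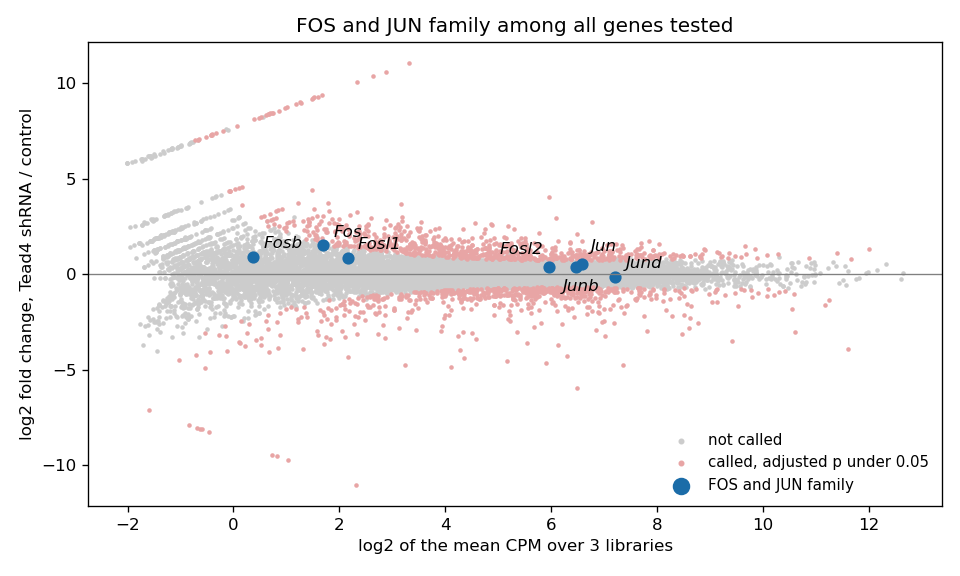
Log2 fold change of Tead4 shRNA over control (vertical) against the log2 mean CPM of the 3 libraries (horizontal) for 14478 tested genes. Blue points are the FOS and JUN family, of which 0 of 7 were called, and red points are called genes; the slanted rows at left and top are genes with very few or 0 reads in 1 group, whose fitted fold change has no fixed size.

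The JUN genes and Fosl2 had far more reads than Fos, Fosb and Fosl1. Levels of different genes were compared per length, as CPM per kilobase of annotated exon, taking all exons of a gene in GENCODE M21. On this scale the order was Jund, Junb, Jun, Fosl2, Fosl1, Fos and Fosb in each of the 3 libraries. Jund stood at 104.5 CPM per kilobase under shRNA A and 68.5 under shRNA B, against 94.1 in the control library. Fosb, at the other end, stood at 0.279 under shRNA A and 0.214 under shRNA B, against 0.130 in the control library. All but 1 of the steps between neighbours exceeded counting error, the exception being Fosl1 over Fos with shRNA A (1.20-fold, 95% exact interval 0.869 to 1.66). The long exons of Fosl2 (9680 bases) and Fosb (6243 bases) lower their values on this scale if cells use only shorter isoforms.

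**Figure D2:**
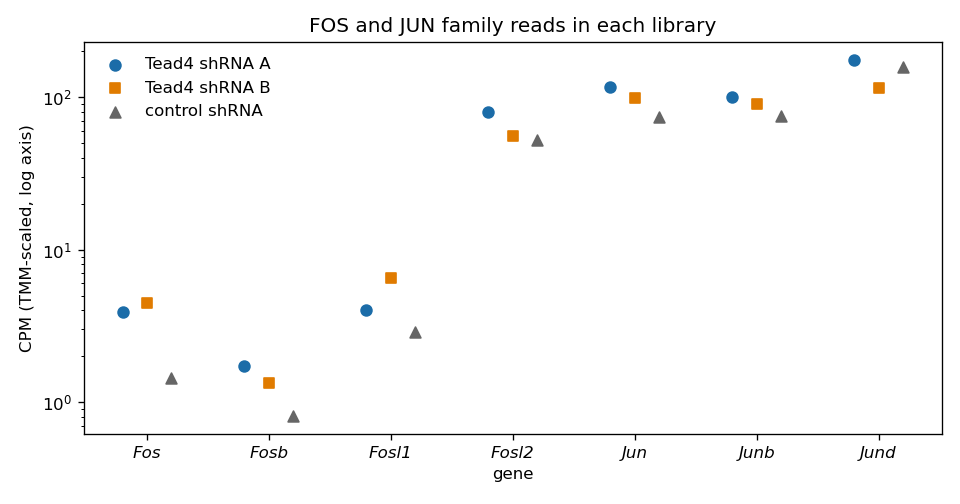
CPM of each member on a log axis in the Tead4 shRNA A, Tead4 shRNA B and control shRNA libraries, 1 point a library. Fos, Fosb and Fosl1 lie between 0.810 and 6.47 CPM and the other 4 genes between 52.6 and 174.2 CPM; CPM is not corrected for gene length.

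Fos, the prototype immediate-early gene and the DNA-binding partner of Jun, had the largest fitted difference of the family. It had 78 reads under shRNA A and 70 under shRNA B, against 23 in the control library, or 3.88 and 4.44 CPM against 1.43 CPM. Both Tead4 shRNA libraries were well above the control library and close to each other. The ratio was 2.71-fold with shRNA A (95% exact interval 1.68 to 4.52) and 3.10-fold with shRNA B (1.91 to 5.21). The log2 fold change of 1.53 (SE 0.51, 95% interval 0.48 to 2.59) did not pass the edgeR quasi-likelihood test at an adjusted p of 0.0608 (higher in 2 of 2 Tead4 shRNA libraries). Of all tested genes, 4.11% had a larger fitted fold change, and 5.66% of those with a mean of 20 to 100 reads were called higher. Fos was called higher under 2 alternatives, with no filter on low counts (edgeR adjusted p = 0.0207) and with total-count scaling (edgeR adjusted p = 0.0480). These alternatives called 5.36% and 6.29% of all genes higher. Over the 8 alternatives its adjusted p ran from 0.0207 to 0.885.

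Fosb, a close relative of Fos, had the fewest reads: 35 under shRNA A and 21 under shRNA B, against 13 in the control library. Both values were above the control, and at this depth the interval for shRNA B included no change. The ratios were 2.15-fold with shRNA A (1.11 to 4.43) and 1.65-fold with shRNA B (0.787 to 3.58). The fitted log2 fold change of 0.92 had an SE of 0.76 (edgeR adjusted p = 0.552), so a difference could be neither shown nor bounded closely (95% interval -0.66 to 2.51).

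Fosl1 codes for FRA1, a FOS protein without the transactivation domain of Fos that is made in growing and migrating cells. It had 81 reads under shRNA A and 102 under shRNA B, against 46 in the control library, or 4.03 and 6.47 CPM against 2.86 CPM. Both Tead4 shRNA libraries lay above the control library, shRNA B by more. The ratio was 2.26-fold with shRNA B (1.58 to 3.27), and 1.41-fold with shRNA A, where the interval of 0.967 to 2.06 included no change. The log2 fold change was 0.87 (SE 0.45, edgeR adjusted p = 0.270).

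Fosl2 codes for FRA2, the FOS protein with the most reads here. It had 1605 reads under shRNA A and 873 under shRNA B, against 844 in the control library, or 79.8 and 55.4 CPM against 52.6 CPM. The shRNA A library stood apart, while the shRNA B library was within counting error of the control. The ratios were 1.52-fold with shRNA A (1.40 to 1.65) and 1.05-fold with shRNA B (0.958 to 1.16). The log2 fold change was 0.36 (SE 0.24, edgeR adjusted p = 0.425).

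Jun, the main target of the JNK kinases and an activator of its own promoter, had 2343 reads under shRNA A and 1549 under shRNA B, against 1193 in the control library. In CPM it was at 116.5 under shRNA A and 98.3 under shRNA B, against 74.3 in the control library. Both Tead4 shRNA libraries were above the control library by more than counting error, by 1.57-fold with shRNA A (1.46 to 1.68) and 1.32-fold with shRNA B (1.23 to 1.43). The log2 fold change of 0.53 (SE 0.23, 95% interval 0.06 to 1.01) did not pass the edgeR test (adjusted p = 0.168).

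Junb, a JUN protein known to restrain Jun in several cell types and to maintain muscle mass in the mouse, had 2024 reads under shRNA A and 1420 under shRNA B, against 1197 in the control library. The ratios were 1.35-fold with shRNA A (1.26 to 1.45) and 1.21-fold with shRNA B (1.12 to 1.31), both beyond counting error. The log2 fold change was 0.36 (SE 0.22, 95% interval -0.11 to 0.82, edgeR adjusted p = 0.391). In GENCODE M21 Junb overlaps Prdx2 on the opposite strand, and the library kit does not mark strand, so the counting of reads in the overlap is uncertain. Prdx2 had 6079 reads under shRNA A and 5098 under shRNA B, against 3883 in the control library (log2 fold change 0.37, SE 0.24, edgeR adjusted p = 0.402).

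Jund, the steadily made JUN protein, was the only member whose 2 Tead4 shRNA libraries lay on opposite sides of the control library. It had 3505 reads under shRNA A and 1800 under shRNA B, against 2520 in the control library, or 174.2 and 114.2 CPM against 156.9 CPM. The ratio was 1.11-fold with shRNA A (1.06 to 1.17) and 0.728-fold with shRNA B (0.685 to 0.774). The fitted log2 fold change of -0.12 (SE 0.25, 95% interval -0.64 to 0.40, edgeR adjusted p = 0.850) averages these opposite values. Jund overlaps a gene on the opposite strand, listed as AC162446.1, which had 1 read under shRNA A and 98 under shRNA B, against 6 in the control library. With those reads added to Jund, an alternative chosen after seeing the data, shRNA A had a log2 ratio of 0.15 and shRNA B of -0.39 (95% exact interval -0.47 to -0.30). Jun also overlaps an opposite-strand gene, listed as AL772318.1, which had 9 to 19 reads a library. Fosl1 overlaps Ccdc85b on the opposite strand, and no row of the table was matched to Ccdc85b, so its reads were not analysed here.

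**Figure D3:**
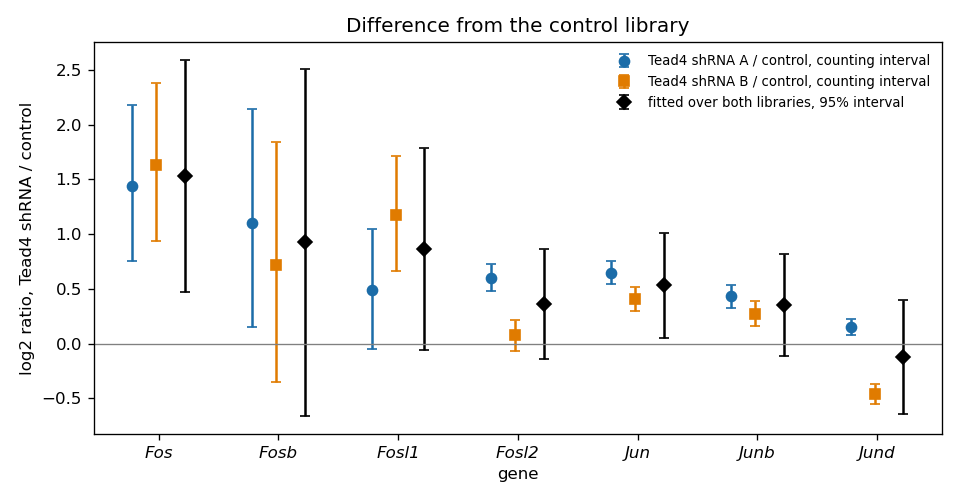
Log2 ratio of each Tead4 shRNA library to the control library with 95% exact counting intervals, and the fitted log2 fold change over both with its 95% interval, for the 7 members. Fos is highest, at 1.44 (shRNA A) and 1.63 (shRNA B), and Jund lies at 0.15 and -0.46; both ratios of a gene share the control library.

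Counting error alone separated most members from the control library, but it separated most tested genes too. With shRNA A, 6 of 7 members had an interval above no change, against 32.9% of all tested genes, and with shRNA B 4 of 7, against 29.7%; below no change were 0 members with shRNA A (32.5% of all tested genes) and Jund with shRNA B (28%). At least 2-fold higher, with such an interval, were Fos and Fosb with shRNA A (8.69% of all tested genes) and Fos and Fosl1 with shRNA B (6.41%). These 3 genes have few reads, and among the 2316 tested genes with a mean of 20 to 100 reads the shares were 18.3% with shRNA A and 16.3% with shRNA B. At least 2-fold lower were 0 members in either library, against 5.88% of all tested genes with shRNA A and 4.73% with shRNA B. Both sets of ratios share the control library.

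The Tead4 shRNA libraries differed from each other in 5 of 7 members by more than counting error. Jund was 1.52-fold higher with shRNA A than with shRNA B (95% exact interval 1.44 to 1.62), and Fosl2 was 1.44-fold higher (1.33 to 1.57). Jun was 1.19-fold higher (1.11 to 1.26) and Junb 1.12-fold higher (1.04 to 1.20) with shRNA A. Fosl1 went the other way, at 0.622-fold with shRNA A relative to shRNA B (0.459 to 0.841). For Fos (0.873-fold, 0.624 to 1.22) and Fosb (1.31-fold, 0.739 to 2.36) the interval included no difference. Of all tested genes, 25.4% were higher and 25.3% lower with shRNA A than with shRNA B by the same measure, and 0 members were at least 2-fold higher (2.16% of all tested genes) or lower (2.25%). Tead4 itself was 1.83-fold higher with shRNA A than with shRNA B (1.52 to 2.20).

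Within the family, Jund held a smaller share of the reads in both Tead4 shRNA libraries. It took 36.2% of the reads of the 7 genes with shRNA A (95% exact interval 35.3 to 37.2) and 30.8% with shRNA B (29.7 to 32.0), against 43.2% in the control library (41.9 to 44.5). A share also depends on the other members. The level of Jund itself was above the control library with shRNA A (1.11-fold) and below it with shRNA B (0.728-fold). With shRNA A every other member was higher by a larger ratio, from 1.35-fold for Junb to 2.71-fold for Fos. Jun took 24.2% (23.4 to 25.1) and 26.6% (25.4 to 27.7), against 20.4% (19.4 to 21.5) in the control library. The FOS genes together took 18.6% (17.8 to 19.4) with shRNA A and 18.3% (17.3 to 19.3) with shRNA B, against 15.9% (14.9 to 16.8) in the control library. Fosl2 made up most of those reads, with 16.6% and 15.0% of the family in the Tead4 shRNA libraries and 14.5% in the control. Corrected for exon length, the FOS genes made up 6.17% and 7.37% of the family, against 4.82% in the control library. These shares compare libraries and have no replicate check.

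Of 10 tested genes for other dimer partners of FOS and JUN proteins, 3 fell and 0 rose by the edgeR test (median log2 fold change -0.43). Atf3, a stress-induced factor that pairs with JUN proteins, had 3.78 and 4.95 CPM in the Tead4 shRNA libraries, against 99.7 CPM in the control library (log2 fold change -4.52, SE 0.25). Atf4, the main factor of the integrated stress response, had 159.6 and 174.0 CPM, against 974.1 CPM (-2.55, SE 0.23). The small MAF protein gene Mafk had 46.3 and 40.2 CPM, against 82.7 CPM (-0.93, SE 0.22). The AP-1 repressor gene Jdp2, named after its value was seen, was not called (0.00, SE 0.22). Batf was too low to test, and Batf2 and Batf3 were not matched in the table.

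Upstream of AP-1, the MAP kinase list holds Rps6ka1 and Rps6ka3 beside the MAP kinase genes, and Mapk10 was too low to test. The edgeR test called 0 of 14 tested genes of the list, against 5.34% of all tested genes higher and 4.48% lower. At an unadjusted p under 0.05 were 2 of the 14, Map3k5 and Mapk3, both higher. At that level 11.9% of all tested genes were higher and 9.78% lower. DESeq2 and limma-voom also called 0. The JNK genes Mapk8 and Mapk9, named like Map3k5 and Mapk3 after their values were seen, had log2 fold changes of -0.34 (SE 0.22) and 0.03 (SE 0.23). Map2k1, which codes for the ERK activator MEK1, had a log2 fold change of -0.23 (SE 0.22). The dual-specificity phosphatases, which switch MAP kinases off, gave 4 lower and 0 higher edgeR calls among 11 genes (2 lower with DESeq2). Their median was -0.45, but the list was split, with 5 log2 fold changes above 0 and 6 below. At an unadjusted p under 0.05 (edgeR), 5 were lower and 2 higher. The 2 higher genes, Dusp6 (0.54, SE 0.24) and Dusp7 (0.78, SE 0.26), were named after their values were seen. With total-count scaling, 1 phosphatase gene was called higher. Dusp4 had 43.0 and 37.2 CPM in the Tead4 shRNA libraries, against 78.4 CPM in the control library (-0.97, SE 0.22). Dusp10 (-0.80, SE 0.23) and Dusp14 (-1.02, SE 0.26) fell as well, both calls being lost with DESeq2 (adjusted p of 0.109 and 0.101), and so did Dusp8 (-1.25, SE 0.24), named after its value was seen. Dusp1, itself an immediate-early gene and also named after its value was seen, was not called (0.23, SE 0.24).

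Serum response factor and its cofactors act on Fos through the CArG box. Of 7 tested genes in that list, which includes Creb1, 1 rose and 0 fell, with a median of 0.24. It was Elk3, at 66.6 and 57.4 CPM in the Tead4 shRNA libraries, against 37.0 CPM in the control library (0.74, SE 0.23, edgeR adjusted p = 0.0431). That call was lost with another scaling (RLE, adjusted p = 0.0631) and with DESeq2 (adjusted p = 0.129). Srf, named after its value was seen, had a log2 fold change of 0.41 (SE 0.23) and was not called. The ligases, coactivators and other regulators of FOS and JUN proteins passed the edgeR, DESeq2 and limma-voom tests in 0 of 9 members. Their median was -0.20. The edgeR test called 5.34% of all tested genes higher and 4.48% lower. At an unadjusted p under 0.05 (edgeR) there were also 0 of the 9, against 11.9% of all tested genes higher and 9.78% lower. Cops5, a subunit of the COP9 signalosome that acts as a coactivator of Jun, had -0.26 (SE 0.23) and Ep300, a histone acetylase, -0.07 (SE 0.22).

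Other immediate-early genes went both ways: of 22 tested, 6 rose and 3 fell, with a median of 0.18. Cyr61, a secreted matrix protein, had 306.6 and 233.8 CPM in the Tead4 shRNA libraries, against 86.1 CPM in the control library (1.65, SE 0.26). Ctgf, its relative, rose by 1.14 (SE 0.24), and Klf4, a zinc finger factor, fell by 2.21 (SE 0.21). Named after their values were seen, the zinc finger factors Egr1, Egr2 and Egr3 rose by 1.67, 2.10 and 1.57, and Arc rose by 2.96 from few reads, while Myc and Ier3 fell by 1.92 and 0.86, the call of Ier3 being lost with DESeq2. Cyr61 and Ctgf are also known targets of YAP and TEAD factors.

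Genes known as AP-1 targets rose in 5 of 19 tested members and fell in 2, with a median of 0.46, and Mmp3, Mmp9 and Mmp10 were too low to test. The protease inhibitor Timp1 rose by 0.80 (SE 0.25), a call lost with RLE scaling (edgeR adjusted p = 0.0655) and with DESeq2 (adjusted p = 0.0685). The growth factor Vegfa fell by 1.64 (SE 0.21) and the haem-degrading enzyme Hmox1 fell by 1.14 (SE 0.21). Chosen after their values were seen, cyclin D1 (Ccnd1; 2.16, SE 0.25), Hbegf (1.53, SE 0.26) and the urokinase gene Plau (1.04, SE 0.23) rose too. Each gene of this list also answers to other factors. All calls in these lists were read against 5.34% of tested genes higher and 4.48% lower.

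**Figure D4:**
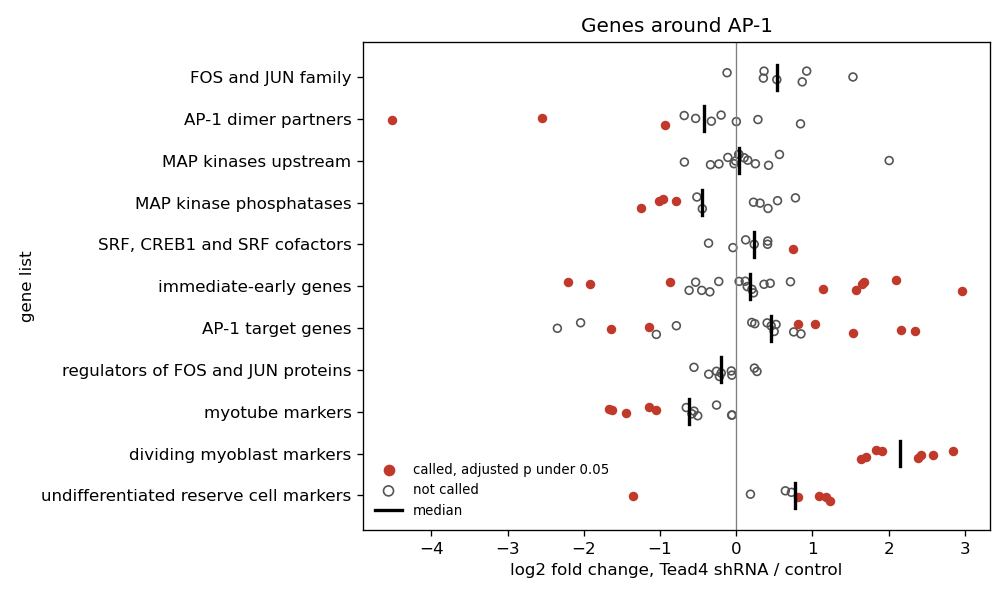
Fitted log2 fold change of Tead4 shRNA over control for each tested gene of the FOS and JUN family, the lists around AP-1 and the marker lists, 1 point a gene, with the median as a bar. The family has no called gene and a median of 0.53, dimer partners have 3 called genes, all lower, and the 8 dividing myoblast markers are all called higher.

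Markers of cell state differed between the same libraries. Dividing myoblast markers rose in 8 of 8 members (median 2.14; 7 with DESeq2), and their summed level was 200.2 and 194.3 CPM in the Tead4 shRNA libraries, against 46.0 CPM in the control library. Mki67 rose by 2.59 (SE 0.28), Top2a by 1.91 (SE 0.25) and Ccna2 by 2.38 (SE 0.29). Myotube markers fell in 5 of 12 members and rose in 0 (median -0.62), with a summed level of 12887 and 16115 CPM, against 22951 CPM in the control library; Myog fell by 1.44 (SE 0.24), Myh3 by 1.63 (SE 0.24) and Tnnt3 by 1.15 (SE 0.24). All 12 were detected in every library. Reserve cell markers rose in 4 of 8 members (2 with DESeq2) and fell in 1, Myf5 (-1.35, SE 0.24), with a summed level of 440.7 and 473.2 CPM, against 356.2 CPM; Spry1 rose by 1.18 (SE 0.26) and Hes1 by 0.81 (SE 0.25), the call of Hes1 being lost with RLE scaling, DESeq2 and limma-voom. The part of these markers in the values of the FOS and JUN genes was not tested, and in bulk RNA a change in the share of undifferentiated cells and a change in RNA per cell cannot be told apart.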

How the data were processed

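Raw read counts per Ensembl gene for 3 libraries were taken from the authors' deposited table. The normalized values deposited beside them, a score, were the raw counts times a constant for each library, within rounding, and were not used further. TopHat 1.0.12, Cufflinks 0.8.2, DESeq and mm9 are named in the submitters' processing notes, with no role or order; the counting program and annotation are not given in the sources used here. Per the labels' protocols, reads were single-end from a kit that does not mark strand.

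The test was run with edgeR 4.0.16 under R 4.3.3 (filterByExpr, TMM, quasi-likelihood F test, Benjamini-Hochberg over 14478 genes, threshold 0.05), the 2 Tead4 shRNA libraries against the control. SEs were derived from the log2 fold change and F (its size over the root of F), and their 95% intervals use the test's total degrees of freedom. The p-values reflect no more than the spread between the 2 Tead4 shRNA libraries, which may be technical. For each gene that spread is mostly pooled over all tested genes, with 20.9 prior degrees of freedom beside 1 residual. Single libraries were compared by ratios of TMM-scaled counts with exact Clopper-Pearson intervals. The procedures were tested on simulated data. The edgeR simulation gave the control library the same spread as the Tead4 shRNA libraries, so it could not check that assumption. It placed changes only in genes with a higher mean CPM than Fos, Fosb and Fosl1, so it does not show how well such genes are recovered. Alternatives were RLE, upper-quartile and total-count scaling, no filter, the newer quasi-likelihood method, DESeq2 1.42.0, limma-voom (limma 3.58.1), a dispersion over all 3 libraries and each Tead4 shRNA library alone.

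The members and lists were chosen with earlier results of these data known, so no set test was run. Named are the members, Tead4 and, from each list, the 3 called genes with the highest CPM, or 2 genes where none was called; genes that overlap a member are also named, and others are marked where named. The rule also named the genes nearest in pattern to each member that passed the test, which gave none. Some named genes are not reported here.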

Additional observations from a re-analysis of the deposited data

Results flagged for a closer look

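Jund stood out because its Tead4 shRNA libraries moved in opposite directions from the control library, each by more than counting error. Its log2 ratios against control were 0.15 (shRNA A) and -0.46 (shRNA B). The difference between the shRNAs was not tested, since each has 1 library.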

How the results depend on the processing

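Over the 8 alternative fits, the sign of the fold change of each of the 7 members stayed as reported, and Fos was the only member called in any of them: 1 member was called higher with total-count scaling and 1 with no filter on low counts. Jun kept an adjusted p of at least 0.121. Each Tead4 shRNA library alone gave the ratios reported, and with shRNA A alone Jund was above the control library. DESeq2 called 447 genes higher and 371 lower over all genes, and why it called fewer was not tested. With the dispersion over all 3 libraries, edgeR's likelihood-ratio test called 0 higher and 0 lower. It gave 540 genes an unadjusted p under 0.05, none of them a member. That dispersion is estimated without the groups, so differences between the Tead4 shRNA libraries and the control library enter it as spread. At an unadjusted p under 0.05, DESeq2 had 1 member (Fos) and limma-voom 2 (Fos and Jun). All 63 recomputed library ratios of the members stayed inside their counting intervals under the other scalings. Another scaling shifts every gene of a library pair by the same log2 amount, so these are not 63 separate checks. Of the 27 other named genes, DESeq2 ended the calls of 5 and RLE scaling of 3, limma-voom that of 1, and the dispersion over all 3 libraries those of 23. No paired analysis was possible, as there was 1 control library for 2 Tead4 shRNA libraries. Depth limits Fos, Fosb and Fosl1 most, with 13 to 46 reads in the control library.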
